A study of Mus musculus with 10 samples.

Results

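The genes of the proteasome were read in the gastrocnemius, a calf muscle, of fasted mice with and without the transcription factor Skn-1. Members were all genes whose platform symbol begins with Psma, Psmb, Psmc, Psmd, Psme, Psmf or Psmg. This gave 49 genes with 103 probe sets that carry a single gene name, of 34945 such probe sets for 18193 genes in the series. A probe set is the group of short probes on the array that reports a transcript. 1 further probe set, shared by Psme2 and its copy Psme2b, was left out because it names both genes. 2 of the 49 genes, Psmc3ip and Psme3ip1, carry the name of a subunit they bind and are not themselves subunits.

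There were 5 arrays of each genotype, each labelled a biological replicate. The knockout mice were Skn-1/Pou2f3-deficient, from a mixed 129 x C57BL/6J background crossed back to C57BL/6J for over 10 generations, and the others were labelled wild type. All mice were males of 12 to 16 weeks on chow, and all were fasted for 18 h before dissection. Both genotypes were fasted, so the comparison concerns the knockout and not fasting itself. Pou2f3, the gene of Skn-1, encodes a factor of the POU family known from taste and tuft cells. Its single probe set lay between 6.4704 and 6.4711 in knockouts and between 6.4707 and 6.4712 in wild types, too narrow a range to check the labels.

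The proteasome is the barrel-shaped protease that takes apart proteins marked with ubiquitin. Its 20S core is built of outer rings of alpha subunits (Psma genes) and inner rings of beta subunits (Psmb genes), and the 19S cap of ATPases (Psmc genes) and other subunits (Psmd genes) recognises, unfolds and feeds in the substrate. Psmb5, Psmb6 and Psmb7 carry the cutting sites of the standard core. In cells exposed to interferon gamma, and constantly in lymphoid cells, Psmb8, Psmb9 and Psmb10 take their places and form the immunoproteasome, which favours peptides for MHC class I. In fasting muscle the ubiquitin-proteasome route breaks down contractile proteins and releases amino acids.

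The deposited values were read as log2 from their range, and the log base is not stated. Most probe sets of this table hardly vary: 86.2% of all 45037 had an SD over the 10 arrays at or below 0.01. Among the proteasome probe sets 32 of 103 (31.1%) exceeded this limit and are called varying here, against 15.6% of all single-gene probe sets. The share of varying probe sets grows with brightness. Among probe sets with a mean of 10 or more, 14 of 26 proteasome probe sets (53.8%) varied, against 79.7% of all. The 32 belong to 21 genes, and the other 28 genes have no varying probe set. The lowest SDs above the limit were those of Psmb6 (0.0153) and a Psmc2 probe set (0.0179), and the highest below it was that of a Psma1 probe set (0.00206). A difference in a hardly varying probe set has no size that can be read as a fold change, so only varying ones are given in values. Muscle markers were at the top of the scale on every array, with Ckm, the muscle creatine kinase, between 13.63 and 13.83.

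**Figure D1:**
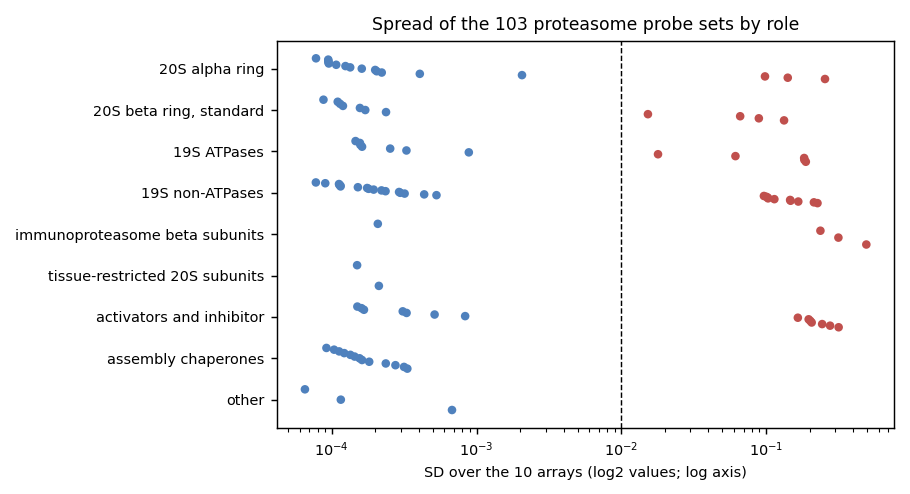
Each point is 1 of the 103 proteasome probe sets, placed by its SD over the 10 arrays on a log axis and grouped by role, and the dashed line is the limit of 0.01. The 32 red points to the right vary; assembly chaperones and tissue-restricted subunits have none there.

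The immunoproteasome subunits stood high on 1 array of each genotype and did not separate the genotypes. Psmb8, which replaces Psmb5, read 7.08, 7.16, 7.34, 7.14 and 8.54 in knockouts 1 to 5 and 7.10, 7.08, 7.96, 7.03 and 7.29 in wild types 1 to 5. Knockout 5 and wild type 3 lay above all the others, and the remaining 8 arrays of both genotypes overlapped between 7.03 and 7.34. Against the median of those 8, Psmb8 was at 2.69 times the level in knockout 5 and at 1.79 times in wild type 3. The other Psmb8 probe set hardly varied.

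Psmb9, which replaces Psmb6, read 6.76, 6.72, 6.81, 6.61 and 7.65 in knockouts and 6.73, 6.73, 7.16, 6.63 and 6.75 in wild types. Psmb10, which replaces Psmb7, read 7.39, 7.50, 7.54, 7.52 and 8.15 in knockouts and 7.57, 7.53, 7.96, 7.50 and 7.65 in wild types. Both genes had the same 2 arrays on top. In knockout 5 they were at 1.89 and 1.54 times the median of the other 8 arrays, and in wild type 3 at 1.34 and 1.36 times. All 3 immunoproteasome subunits were above the other 8 arrays in both knockout 5 and wild type 3, as were 12.7% of all varying probe sets and 0 of the 22 varying probe sets of standard 20S and 19S subunits.

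Lymphocyte markers moved with these values. Of 16 marker genes listed, 13 were measured, with 26 probe sets of which 16 varied. Their mean deviation from the 10-array median was 1.64 in knockout 5 and 1.61 in wild type 3, and between -0.10 and 0.04 on the other 8 arrays. Ltb, a lymphocyte cytokine, ran from 5.84 to 8.67 over the arrays. Macrophage markers were at 0.35 in knockout 5 and 0.61 in wild type 3, and between -0.43 and 0.27 elsewhere. The part of these cells in the immunoproteasome values was not tested, and in whole muscle more cells of a type cannot be told apart from more RNA per cell. How Psmb8 on these 2 arrays (8.54 in knockout 5 and 7.96 in wild type 3) relates to the lymphocyte deviation was likewise not tested.

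**Figure D2:**
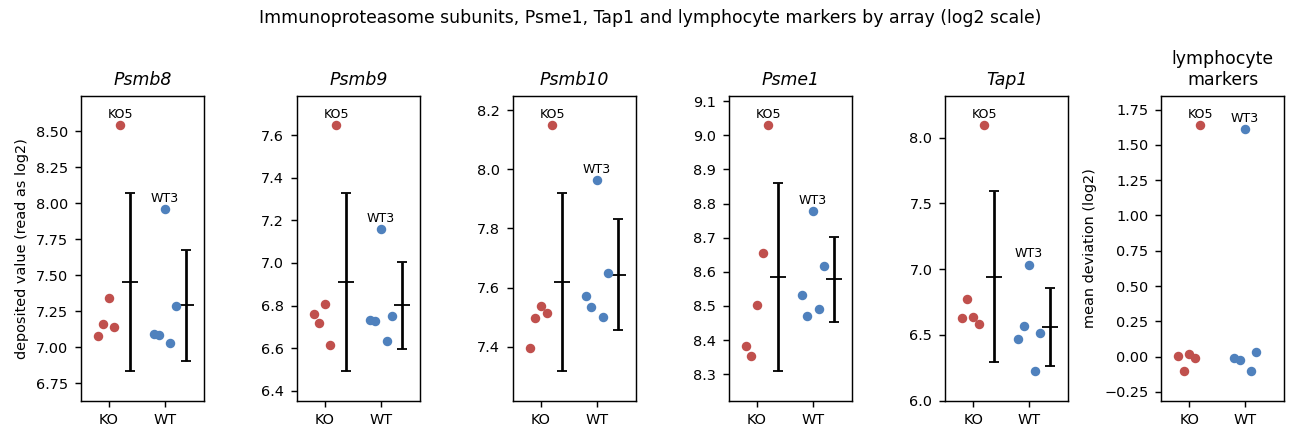
Values of Psmb8, Psmb9, Psmb10, Psme1 and Tap1 on each array (log2), and the mean deviation of 16 varying lymphocyte marker probe sets; red points are knockouts (KO), blue points wild types (WT), and black bars the group mean ± SD (n = 5). Knockout 5 and wild type 3, labelled, lie above the other 8 arrays in every panel.

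The sequences before the start sites of these genes are shown because the genes stood high on the same arrays, with that of Psmb5 for comparison. They come from RefSeq (GRCm38.p6), where 43 of the 49 genes had an entry. For Psmb9 the window is the 225 bases at chr17:34187331-34187555 (minus strand) that separate its start from that of Tap1, a peptide transporter gene that runs the other way. Those of Psmb8 (chr17:34197945-34198194, plus strand), Psmb10 (chr8:105938393-105938642, minus strand) and Psmb5 (chr14:54617996-54618245, minus strand) are the 250 bases before the start. Capitals mark matches to the 2 motifs searched on both strands: GAAA followed after 2 bases by GAAA again, a core of interferon-stimulated elements, and TGACNNNGC, a core of antioxidant response elements.
Psmb8: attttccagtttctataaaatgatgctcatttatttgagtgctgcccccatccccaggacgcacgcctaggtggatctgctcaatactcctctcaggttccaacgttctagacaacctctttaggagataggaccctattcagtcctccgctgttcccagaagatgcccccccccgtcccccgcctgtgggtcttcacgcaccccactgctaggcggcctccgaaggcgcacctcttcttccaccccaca
Psmb9: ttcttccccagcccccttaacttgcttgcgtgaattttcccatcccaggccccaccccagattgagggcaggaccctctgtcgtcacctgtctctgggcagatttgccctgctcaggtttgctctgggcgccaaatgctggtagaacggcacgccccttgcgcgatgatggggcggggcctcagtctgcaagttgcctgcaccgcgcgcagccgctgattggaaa
Psmb10: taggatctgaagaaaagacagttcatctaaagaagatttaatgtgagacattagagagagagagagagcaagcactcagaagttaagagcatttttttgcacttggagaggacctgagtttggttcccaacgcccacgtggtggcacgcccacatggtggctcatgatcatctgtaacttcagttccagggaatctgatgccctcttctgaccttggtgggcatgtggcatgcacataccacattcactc
Psmb5: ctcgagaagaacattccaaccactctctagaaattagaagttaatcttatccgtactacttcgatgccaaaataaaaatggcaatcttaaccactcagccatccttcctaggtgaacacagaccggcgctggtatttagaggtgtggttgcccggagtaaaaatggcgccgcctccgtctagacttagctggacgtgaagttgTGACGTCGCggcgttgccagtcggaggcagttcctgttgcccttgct
Psmb5 held TGACGTCGC from base -47 to -39 before its start. The Psmb8, Psmb9 and Psmb10 windows held neither motif, which says only that these letters are not in these windows. Over all 32851 windows, 2.98% held the first motif and 10.2% the second. The 43 proteasome genes with an entry had 47 windows. The first motif was in 3 of the 47, those of Psmb3, Psmd4 and Psmd9. The second was in 5 of the 47, those of Psmb5, Psmb6, Psmc6, Psmd12 and Psmd9.

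The comparison of genotypes asks which of these transcripts depend on Skn-1 in the fasted state. The mean of Psmb8 was 7.45 ± 0.617 (SD, n = 5) for knockouts and 7.29 ± 0.387 (SD, n = 5) for wild types, a log2 difference of 0.16 with a 95% interval from -0.56 to 0.89 (limma adjusted p = 0.988). For Psmb9 the difference was 0.11 (-0.35 to 0.57, limma adjusted p = 0.988) and for Psmb10 -0.02 (-0.38 to 0.33, limma adjusted p = 0.9996). Without knockout 5 and wild type 3, a choice made after seeing the data, the Psmb8 mean was 7.18 ± 0.113 (SD, n = 4) for knockouts and 7.12 ± 0.114 (SD, n = 4) for wild types. The differences were then 0.06 for Psmb8, 0.01 for Psmb9 and -0.08 for Psmb10, and none passed (limma adjusted p from 0.948 to 0.997). Without knockout 5 alone that of Psmb8 was -0.11 and that of Psmb9 -0.07, and Psmb10 changed sign without knockout 1, 2 or 4 or wild type 3 (0.03, 0.0053, 0.00091 and 0.06).

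The standard counterparts gave little to set these against. The single probe sets of Psmb5 (SD 0.000114) and Psmb7 (SD 0.00017) hardly varied, and that of Psmb6 barely did. Psmb6 read 10.42, 10.42, 10.45, 10.43 and 10.43 in knockouts and 10.43, 10.41, 10.44, 10.45 and 10.46 in wild types. Within arrays, the log2 ratio of Psmb8 to Psmb5 differed between genotypes by 0.16 (exact two-sided permutation p = 0.587). That of Psmb9 to Psmb6 differed by 0.12 (exact permutation p = 0.603) and that of Psmb10 to Psmb7 by -0.02 (exact permutation p = 0.841). With Benjamini-Hochberg adjustment over the 3 ratios each exact permutation p was 0.841, where 5 against 5 arrays can reach 0.00794 unadjusted. Since Psmb5 and Psmb7 hardly varied, these ratios repeat the values of Psmb8 and Psmb10 and show no more than them.

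Among standard subunits most varying probe sets were lower in knockouts, by small amounts that did not pass. After Benjamini-Hochberg adjustment limma called 0 of the 103 proteasome probe sets at 0.05, and 0.191% of all probe sets. With the brightest probe set of each gene it called 0 of the 49 proteasome genes and 0.0275% of all genes. At an unadjusted limma p under 0.05 there were 13 proteasome probe sets, of which 10 hardly varied, against 6.62% of all probe sets. The 3 varying ones, Psma7, Psma6 and Psmc4, make up 9.38% of 32 against 9.92% of all varying probe sets. All 3 were lower in knockouts, against 2.48% of all varying probe sets lower and 7.44% higher at this p. Of the 32 varying probe sets 24 were lower by mean, where 50.8% of all varying probe sets were, and their median difference was -0.04 against -0.0021 for all. Of the 22 varying probe sets of standard 20S and 19S subunits 20 were lower (median -0.06), among them all 7 of the 20S core. Without the 2 arrays with lymphocyte genes these counts were 21 and 7, and without the 5 marker arrays, those with lymphocyte or hair genes (knockouts 1, 4 and 5, wild types 1 and 3), 20 and 7. These 2 counts and all their alternatives were chosen after seeing the data. The count of 20 was 15 without wild type 4 and 16 without knockout 1. Without the 5 marker arrays only knockouts 2 and 3 and wild types 2, 4 and 5 remained. The 22 probe sets belong to 16 genes and the 7 of the core to 6. Some of the lower ones were near 0, such as Psmd7 (-0.00051) and Psmb6 (-0.0062). The 19S probe sets also moved together from array to array, so these are not counts of independent members.

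In the alpha rings, which gate the entry to the core, Psma7 read 10.24, 10.09, 10.24, 10.00 and 10.18 in knockouts and 10.45, 10.25, 10.37, 10.32 and 10.43 in wild types. It was the only varying proteasome probe set without overlap between the genotypes, by a gap from 10.243 in knockout 3 to 10.253 in wild type 2, while 0.596% of all varying probe sets were without overlap in this direction and 3.96% in either. Its mean was 10.15 ± 0.102 (SD, n = 5) for knockouts and 10.36 ± 0.0799 (SD, n = 5) for wild types (log2 difference -0.21 ± 0.06 SE, 13.7% lower, limma adjusted p = 0.369). The other Psma7 probe set hardly varied.

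Psma6, another alpha subunit, read 10.49, 10.45, 10.60, 10.54 and 10.59 in knockouts and 10.58, 10.62, 10.64, 10.71 and 10.78 in wild types. The groups overlapped between 10.58 and 10.60 (log2 difference -0.13 ± 0.05 SE, limma adjusted p = 0.59), and its 3 other probe sets, one of them nearly as bright, hardly varied. A dim Psma1 probe set differed by -0.29 (95% interval -0.60 to 0.0082, limma adjusted p = 0.77), with wild type 1 (6.82) and knockout 4 (6.72) lowest. The brightest Psma1 probe set hardly varied. Psma2, Psma3, Psma4 and Psma5 had hardly varying probe sets, and Psma4 is the only one of the 49 genes on chromosome 9, where Pou2f3 lies.

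Of the standard beta subunits Psmb3 and Psmb4, which are structural and do not cut, varied along with Psmb6. The brighter Psmb3 probe set read 10.79, 10.81, 10.76, 10.64 and 10.65 in knockouts and 10.83, 10.93, 10.68, 10.78 and 10.81 in wild types. Its difference was -0.07 (95% interval -0.19 to 0.04), and that of the dimmer was -0.06 (-0.15 to 0.02, limma adjusted p = 0.928 and 0.884). The dimmer one read 9.81, 9.90, 9.94, 9.83 and 9.86 in knockouts and 9.82, 9.94, 9.95, 10.00 and 9.95 in wild types, so both overlapped. The brighter differed by -0.04 without wild type 2. Psmb4 differed by -0.08 (95% interval -0.27 to 0.10). Psmb1 and Psmb2 had hardly varying probe sets.

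The 19S ATPases unfold the substrate and open the core, and all 5 of their varying probe sets were lower in knockouts by mean. The dimmer Psmc4 probe set read 8.57, 8.55, 8.94, 8.56 and 8.84 in knockouts and 8.785, 8.96, 8.92, 8.995 and 8.97 in wild types. Knockouts 1, 2 and 4 lay below every wild type while knockouts 3 and 5 lay among them (log2 difference -0.23 ± 0.09 SE, limma adjusted p = 0.661). The brighter Psmc4 probe set read 9.24, 9.18, 9.26, 9.09 and 9.19 in knockouts and 9.22, 9.27, 9.31, 9.26 and 9.20 in wild types (log2 difference -0.06 ± 0.03 SE, limma adjusted p = 0.862). It was -0.04 without knockout 4 and -0.03 without the 5 marker arrays. Psmc5 differed by -0.04 (95% interval -0.31 to 0.23), and Psmc2 by -0.10 (-0.37 to 0.17) in its probe set with the larger spread. Psmc1, Psmc3 and Psmc6 had no varying probe set.

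The 19S subunits without ATPase activity bind ubiquitin chains, remove them or hold the lid together. Of their 10 varying probe sets 8 were lower in knockouts, and 0 reached an unadjusted limma p under 0.05, where 9.92% of all varying probe sets did. Psmd8, of the lid, read 10.38, 10.63, 10.90, 10.51 and 10.62 in knockouts and 10.72, 10.75, 10.82, 10.86 and 10.84 in wild types. Knockout 3 was the highest of all 10, and the other 4 knockouts lay below every wild type (log2 difference -0.19 ± 0.09 SE, limma adjusted p = 0.786). Without the 5 arrays with lymphocyte or hair markers the Psmd8 difference was -0.05. That setting left only knockouts 2 and 3 against wild types 2, 4 and 5, so knockout 3 weighed heavily in it. Psmd1, a large scaffold of the base, went the other way, with 10.40, 10.46, 10.52, 10.48 and 10.60 in knockouts and 10.12, 10.40, 10.24, 10.56 and 10.40 in wild types (log2 difference 0.15 ± 0.08 SE, limma adjusted p = 0.862). The Psmd1 difference was 0.09 without wild type 1, 0.10 without the 2 arrays with lymphocyte markers and 0.04 without the 5.

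The other varying members of this class had smaller differences, and all their 95% intervals included 0. Psmd2, the other scaffold, differed by -0.05 (95% interval -0.39 to 0.29), and Psmd4, a ubiquitin receptor, by -0.08 and -0.01 in its 2 varying probe sets. Psmd7 differed by -0.00051, Psmd12 by -0.04 and the 3 varying probe sets of Psmd11 by -0.09 (95% interval -0.30 to 0.12), 0.02 and -0.03. Psmd3, Psmd6, Psmd13 and Psmd14, the last of them the enzyme that takes ubiquitin off, had hardly varying probe sets.

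**Figure D3:**
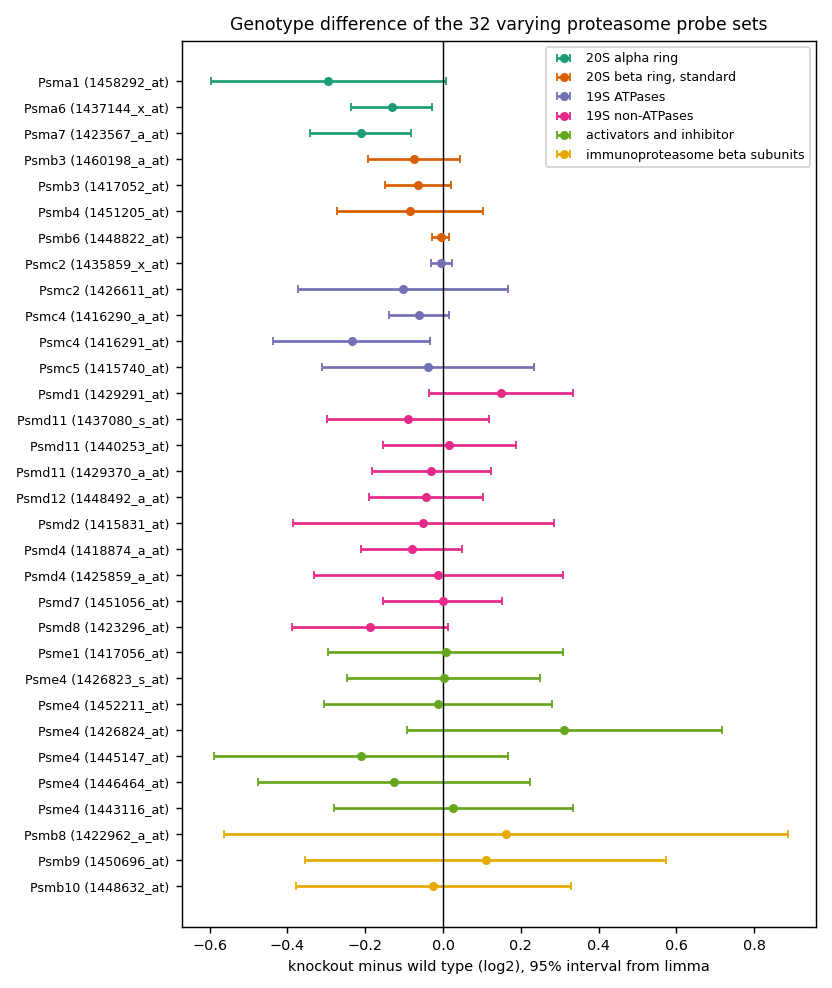
Knockout minus wild type difference (log2) of the 32 varying proteasome probe sets, with 95% intervals from limma, coloured by role. Most standard 20S and 19S points lie left of 0, and the intervals of Psma6, Psma7 and the dimmer Psmc4 probe set alone exclude 0, before any adjustment.

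The varying 19S probe sets moved together from array to array, in both genotypes. Wild type 4 had 15 of 15 above their 10-array median, knockout 3 and wild type 2 had 13 each and knockout 5 had 11. At the other end wild type 1 had 0, knockout 4 had 1, knockout 2 had 2 and knockout 1 had 3. Over all 6209 varying probe sets the share above the median ran from 35.4% in wild type 1 to 58.0% in knockout 5. Psmd2 shows the pattern, at 9.66, 9.78, 10.28, 9.86 and 10.23 in knockouts and 9.71, 10.15, 10.02, 10.20 and 9.98 in wild types. The spread within each genotype (SD 0.277 and 0.194) exceeded the difference between them. Of the 25 varying probe sets of proteasome partners, 9, 7, 20, 10 and 16 were above their median in knockouts 1 to 5. The numbers in wild types 1 to 5 were 3, 18, 8, 19 and 15, so the movement was not confined to 19S subunits.

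The 7 varying probe sets of the standard 20S core were above their median mostly in wild types. The number above the 10-array median was 1, 1, 5, 0 and 1 in knockouts 1 to 5 and 3, 5, 6, 6 and 7 in wild types 1 to 5. Knockout 5 was thus high for 19S and low for 20S probe sets. Whether the 2 classes differ in their response to genotype was not tested. Epidermis and hair markers, 16 varying probe sets of 13 genes, had a mean deviation of 1.04 in knockout 1, 1.30 in knockout 4, 1.20 in wild type 1 and 1.06 in wild type 3, and from -0.07 to -0.04 elsewhere. Of the 4 arrays lowest for 19S probe sets 3 carried these markers and knockout 2 did not, while wild type 3 carried them with 8 of 15 above the median. Their part in the 19S values was not tested.

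**Figure D4:**
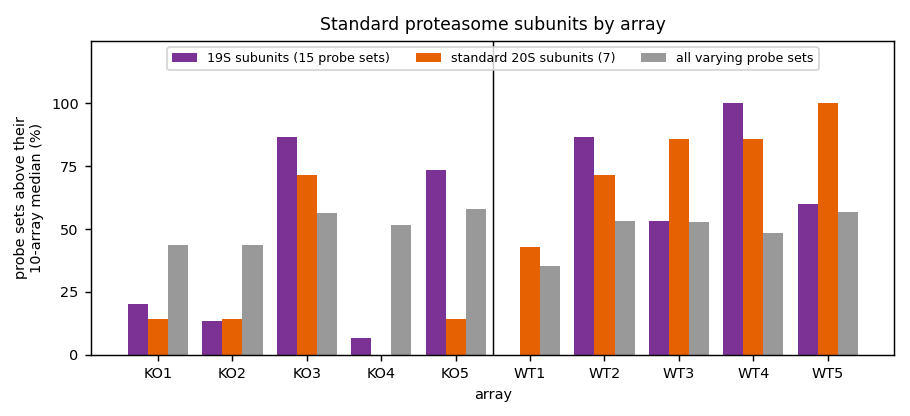
Share of varying probe sets above their own 10-array median on each array, for 19S subunits, standard 20S subunits and all varying probe sets, with knockouts left and wild types right of the line. The 19S bars reach 100% in wild type 4 and 0% in wild type 1, while the grey bars stay between 35.4% and 58.0%.

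**Figure D5:**
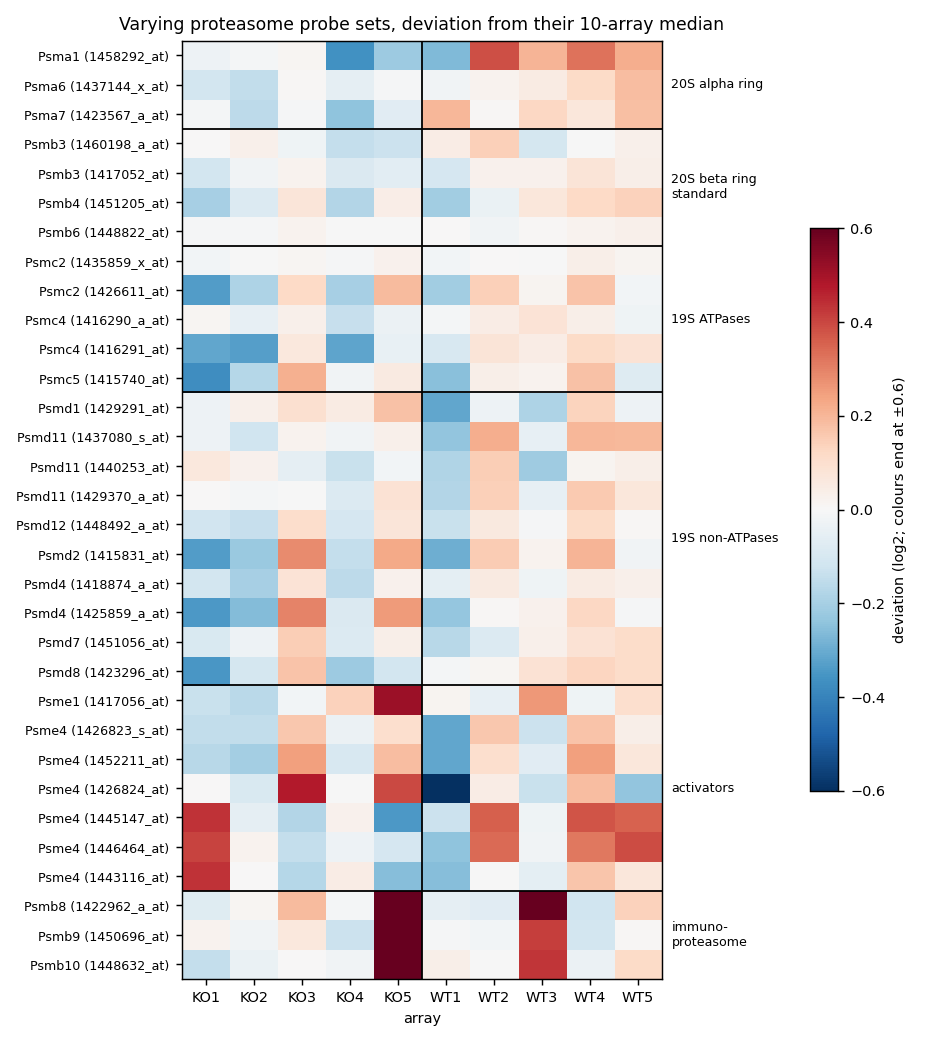
Deviation of each varying proteasome probe set (rows, by role) from its median over the 10 arrays (columns), in log2, with colours ending at ±0.6. The immunoproteasome rows are red in knockout 5 and wild type 3, most 19S rows are blue in knockouts 1, 2 and 4 and wild type 1, and the lower 3 Psme4 rows differ from the upper 3.

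Of the activators, which open the core without ATP, Psme1 and Psme4 varied. Psme1, a subunit of the PA28 cap that interferon gamma also induces, read 8.38, 8.35, 8.50, 8.66 and 9.03 in knockouts and 8.53, 8.47, 8.78, 8.49 and 8.62 in wild types. Knockout 5 and wild type 3 were again the highest, at 1.45 and 1.22 times the median of the other 8. The genotype difference was 0.007 (95% interval -0.29 to 0.31, limma adjusted p = 0.9996) and -0.05 without those 2 arrays.

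Psme4, the PA200 activator, was the only proteasome gene with 6 varying probe sets, and they disagreed. The 3 brighter ones were above their median in knockouts 3 and 5 and wild types 2 and 4, like the 19S subunits. The 3 dimmer ones were highest in knockout 1 in each case and below their median in knockouts 3 and 5. Of the brighter ones, the probe set with the largest genotype difference read 9.10, 9.01, 9.58, 9.10 and 9.50 in knockouts and 8.47, 9.15, 8.97, 9.29 and 8.87 in wild types (log2 difference 0.31 ± 0.18 SE, limma adjusted p = 0.873). It was 0.19 without wild type 1 and 0.19 without the 5 marker arrays. The other 2 brighter ones differed by 0.0019 and -0.01. Of the dimmer ones, the largest difference was that of the probe set at 7.51, 7.03, 6.90, 7.10 and 6.73 in knockouts and 6.95, 7.44, 7.05, 7.46 and 7.43 in wild types (-0.21 ± 0.17 SE, limma adjusted p = 0.938). It was -0.33 without knockout 1, -0.13 without knockout 5 and -0.48 without the 5 marker arrays. The dimmest averaged 6.21, just under the array medians (6.23 to 6.24), and whether it exceeded background was not tested.

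The remaining members gave no values that can be read as folds. The 7 assembly chaperones, Psmg1 to Psmg4, Psmd5, Psmd9 and Psmd10, which build the rings and the cap, had 13 probe sets of which 0 varied. The same held for the activator Psme3, the inhibitor Psmf1, the testis subunit Psma8, the thymus subunit Psmb11 and both genes that are no subunits.

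Partners of the proteasome came from a list of 33 symbols, older names included, of which 21 genes were measured with 57 probe sets. Of these 25 varied, 13 higher and 12 lower in knockouts (median 0.0090), and 0 of 57 passed the adjusted limma threshold. The smallest p among varying ones was that of a dim probe set of Rad23b, which shuttles ubiquitinated proteins to the proteasome. It read 6.92, 7.001, 6.52, 6.80 and 6.72 in knockouts and 6.42, 6.48, 6.29, 6.25 and 6.31 in wild types (log2 difference 0.44 ± 0.09 SE, limma adjusted p = 0.188). A dim probe set of Ecpas, the scaffold that clamps core and cap, read 7.03, 6.71, 7.05, 6.84 and 7.17 in knockouts and 6.49, 6.33, 6.31, 6.70 and 6.59 in wild types (0.48 ± 0.11 SE, limma adjusted p = 0.234). In both the genotypes did not overlap, as in 3.37% of all varying probe sets in this direction.

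Brighter probe sets of the same partner genes differed less. The brightest varying one of Rad23b differed by 0.01 (95% interval -0.08 to 0.10) and the 2 brighter varying ones of Ecpas by 0.08 and 0.02. A still dimmer Ecpas probe set, with an SD just under the limit (0.00971), was higher in knockouts without overlap. Its p was the smallest of the 57 (limma adjusted p = 0.114). Lower in knockouts were the varying probe sets of Zfand2a, by -0.41, -0.28 and -0.37 (limma adjusted p from 0.716 to 0.767). When only the 6209 varying probe sets were tested, the dim varying ones of Rad23b and Ecpas passed (limma adjusted p = 0.0373 and 0.0467), in 1 of 24 alternatives each. That fit called 143 of its 6209 probe sets, against 86 of 45037 in the fit to all. Its probe sets were chosen by their SD over the arrays of both genotypes, which itself rises with a genotype difference. The choice was thus not independent of the test, and no conclusion is drawn from the Rad23b and Ecpas probe sets passing there.

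Genes listed as antigen processing partners followed the same 2 arrays. The list is mixed. Beside genes of the MHC class I peptide route, its varying genes include Irf1, Irf8, Nlrc5 and Cd74, which do not themselves handle those peptides. Of 14 genes listed 12 were measured with 32 probe sets, of which 18 varied. In 17 of these 18, from 9 of 10 genes, both knockout 5 and wild type 3 lay above the other 8 arrays. Of all varying probe sets 12.7% did so. Tap1, a part of the peptide transporter, read 6.63, 6.77, 6.63, 6.58 and 8.10 in knockouts and 6.47, 6.57, 7.03, 6.22 and 6.51 in wild types. The exception was Tapbp, which tethers the transporter to MHC class I. It read 8.89, 8.86, 8.66, 8.74 and 9.22 in knockouts and 8.49, 8.93, 8.87, 8.62 and 8.75 in wild types.

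By genotype 16 of the 18 were higher in knockouts by mean (median 0.16) and 0 passed, where 49.2% of all varying probe sets were higher. The 18 belong to only 10 genes. Tap1 differed by 0.38 (95% interval -0.33 to 1.09, limma adjusted p = 0.942) and by 0.21 without the 2 arrays (limma adjusted p = 0.818). Without knockout 5 alone the Tap1 difference was 0.09. Tapbp differed by 0.14 (-0.14 to 0.42, limma adjusted p = 0.949), by 0.05 without knockout 5, 0.08 without wild type 1, 0.09 without the 2 arrays and -0.01 without the 5. The 2 arrays were not alike in all of these genes. Irf1, a factor that interferon gamma induces, was at 8.58 in knockout 5 and 7.92 in wild type 3, and Tap1 at 8.10 and 7.03. Cd74, the invariant chain of MHC class II, was at 9.44 and 9.37, and a probe set of Irf8 at 7.42 and 7.44. These 3 genes beside Tap1 were named after their values were seen, and the source of the unequal values was not tested.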

How the data were processed

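Muscle RNA was measured on 10 Affymetrix mouse genome arrays, 5 per genotype, with labelling of 100 ng of total RNA, per the labels' protocols. The deposited values are read as log2 expression put on a common scale across arrays by the authors, since the median of each array lies at 6.23 to 6.24. The sources used here do not name the software, the normalization or the log base. 64 array controls were left out, leaving 45037 probe sets: 34945 with 1 gene, 932 with several and 9160 unnamed. Names come from the platform annotation, and all 103 member symbols matched a RefSeq gene table (GRCm38.p6).

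Knockouts were set against wild types by limma 3.58.1 under R 4.3.3 (lmFit, then eBayes without trend), fitted to all probe sets, with Benjamini-Hochberg adjustment at 0.05. Arrays are the replicates, and their number limits the precision. In 5 simulated tables of 45037 probe sets, limma recovered 36.4% of changes of 0.5 and 78.4% of changes of 1, with 4.94% false calls. The changes were put into varying probe sets only, with independent normal noise, so arrays that deviate together were not simulated. Both sizes exceed the largest difference of a varying proteasome probe set (0.31), so these rates do not describe the members. The members and lists were chosen with earlier results of these data known. Values by array are given for the immunoproteasome subunits, their standard counterparts, Psme1 and, in each role or partner list, up to 2 further varying probe sets with the smallest p. Psmd2, and in the partner lists Irf1, Cd74 and Irf8, were added after values were seen. Marker lists of red blood cells (0 varying probe sets of 8), endothelium, Schwann cells and adipocytes were also read. A result on another motif is not reported here. The deviation of adipocyte markers was over 0.5 in knockouts 4 and 5 and wild type 3 and -0.57 in wild type 4, and that of endothelium and Schwann cell markers was at most 0.25. The alternatives were other normalizations, filters, variance models, probe set choices, a replicate block, a lymphocyte covariate and arrays left out. Figures were drawn with Python 3.11.15 and matplotlib 3.10.9.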

Additional observations from a re-analysis of the deposited data

Results flagged for a closer look

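In a group of 5 arrays, 1 array was flagged where its gap to the nearest other array exceeded 0.71 of the group's range, which chance gives in about 1 of 20 groups. Psmb8 was flagged in knockout 5 (8.54, others 7.08 to 7.34) and in wild type 3 (7.96, others 7.03 to 7.29). Psmb9 was flagged in the same arrays, at 7.65 (others 6.61 to 6.81) and 7.16 (others 6.63 to 6.75). Psmb10 was flagged in knockout 5 at 8.15 (others 7.39 to 7.54), as was Tap1 at 8.10 (others 6.58 to 6.77). Psmb6 was flagged in knockout 3 at 10.45 (others 10.42 to 10.43), a gap of little size.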

How the results depend on the processing

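No proteasome probe set passed the adjusted threshold under any of the 26 alternatives run, among them limma with other normalizations, filters and weights, tests per gene and each array left out (0 in every case; 13 at an unadjusted limma p under 0.05 on the deposited scale). The exact permutation test and the 2 fits without the 5 marker arrays called 0 of all 45037 probe sets and say nothing of stability. The count of varying probe sets higher in knockouts, 8 of 32, was 5 without the 2 arrays with lymphocyte genes and 5 without the 5 arrays with lymphocyte or hair genes. Both planned marker rules picked the same 5 arrays. With 1 probe set per gene 5 of 21 were higher. Without 1 array the count ran from 4 (without knockout 5 or wild type 1) to 13 (without knockout 1 or wild type 4), and it was 12 without knockout 2. The count of 7 lower 20S probe sets was 7 in every fit without 1 array, and that of 20 lower standard 20S and 19S probe sets ran from 15 to 21. Without 1 array the log2 ratio of Psmb8 to Psmb5 ran from -0.112 to 0.328, that of Psmb9 to Psmb6 from -0.0691 to 0.206 and that of Psmb10 to Psmb7 from -0.158 to 0.0553. For single genes, Psme1 changed sign with quantile normalization (-0.00074), without the 5 arrays (-0.0985) and without the 2 (-0.0541), and Tapbp without the 5 (-0.01002). Without 1 array Tap1 ran from 0.0934 to 0.5, Psmb8 from -0.112 to 0.328, Psmb9 from -0.0749 to 0.199, Psmb10 from -0.158 to 0.0552 and Psme1 from -0.104 to 0.0648. The smallest adjusted limma p of a proteasome probe set in any alternative was 0.0654, without wild type 1, followed by 0.0881 with array weights. The probe sets behind these values are not identified here. In the main fit the smallest (limma adjusted p = 0.249) was that of a hardly varying Psma1 probe set (SD 0.000406), with no size readable as a fold. For the varying Psma7 probe set the smallest limma adjusted p in any alternative was 0.172. It came from the fit to varying probe sets only, whose choice by SD was not independent of the test. Correlations of the deviations ran from -0.40 to 0.32 for arrays with the same replicate number and from -0.39 to 0.69 for other pairs. Whether the numbers pair the samples cannot be told from so few values. With the replicate number as a block 0 proteasome probe sets passed, 8 of 32 were higher and the 3 ratios kept their values. The p of these ratios, from 0.625 to 0.875, came from an exact test that flips signs within the 5 same-numbered pairs. The mean of varying probe sets per gene could not be run for Psmb5 and Psmb7, which have none. Signal above background is not known for these values, which limits what can be said of dim probe sets.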
